A study of Mus musculus with 10 samples.

Results

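The methionine cycle makes S-adenosylmethionine (SAM), the methyl donor of most methylation reactions, and recovers methionine from what is left after the methyl group has been passed on. SAM is made from methionine and ATP, methyltransferases turn it into S-adenosylhomocysteine, a hydrolase splits that into homocysteine and adenosine, and homocysteine is methylated back to methionine by a folate-dependent or a betaine-dependent enzyme. Creatine synthesis is among the large users of SAM in mammals: the kidney is a main site of its first step, which makes guanidinoacetate from arginine and glycine, and the methylation of guanidinoacetate to creatine takes place largely in the liver. In the kidney, most of these reactions are known from the proximal tubule.

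The gene set described here holds 10 genes of the cycle and of creatine synthesis, chosen by symbol: Mat2a, Mat2b, Ahcy, Ahcyl1, Gnmt, Bhmt2, Mtr, Gamt, Gatm and Nnmt. Each of the 10 symbols matched 1 of the 55359 genes in the table. Levels were measured in kidney messenger RNA of male mice, in 5 libraries after sham surgery and in 5 libraries after 30 min of kidney ischaemia and 24 h of reperfusion (ischaemia-reperfusion injury, IRI). The sources used here give no strain, age or diet, and no interval between sham surgery and sampling. The series concerns dietary methionine deprivation, but no label gives a diet to any of these libraries. The labels do not tie each library to a mouse of its own, and the p-values rest on the spread among libraries, which may in part be technical.

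Library totals ranged from 13147899 to 18603272 counts. The markers of kidney were present: the proximal tubule transporter Slc34a1 stood at 1250 ± 170 FPKM in sham (FPKM, fragments scaled to exonic length and to the library total, given as mean ± SD with n = 5 in each group). Where a sentence lists 5 values for a group, they are those of replicates 1 to 5 in order. Of the hepatocyte list, which bears on Gamt, Gnmt and Bhmt2 because the liver expresses them strongly, the urea cycle enzyme Cps1 stood at a mean of 0.008 FPKM in sham and 0.006 in IRI. That list of 5 summed to 84.5 to 136 FPKM in sham and 13.7 to 56.9 in IRI, most of it Ttr (99.4 ± 20.7 in sham), with 1 marker higher, 2 lower and 2 below the filter. IRI replicate 1 stood apart on the second principal component (40.7, against -17.9 to 6.18 in the other 9 libraries). Of the tested pathway genes, only Gatm and Inmt moved by more than 1.5-fold without it. Values without it are given for some genes, ratios and lists, and not for all that differ.

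The gene set as a whole stood lower after IRI. The FPKM of the 10 genes summed to between 598 and 694 in the sham libraries and to between 170 and 243 in the IRI libraries. In bulk tissue, fewer cells that express a gene and less of its transcript per cell cannot be told apart. Of the 10 genes, 9 passed the filter on low values (at least 1 FPKM in 5 or more libraries), and 8 of these fell, with 0 higher and Mat2b not called (edgeR's quasi-likelihood test, adjusted p under 0.05 over 13324 tested genes). Over all tested genes, 32.4% were called lower and 34.5% higher. The median log2 fold change of the 9 genes was -2.02, against 0.05 over all tested genes. The members were chosen with earlier results of these data known, so these counts and medians describe the set and do not test it. FPKM values of the 2 groups did not overlap in the same 8 genes, IRI being lower, where 18.6% of all tested genes showed no overlap with IRI lower. Nnmt, the gene that missed the filter, is described below from a fit with no filter. When libraries were scaled by their totals and not by TMM factors, the median tested gene moved up by 0.25 on the log2 scale, 23.6% of tested genes were called lower and 47.4% higher, and the 8 genes were still called lower.

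**Figure D1:**
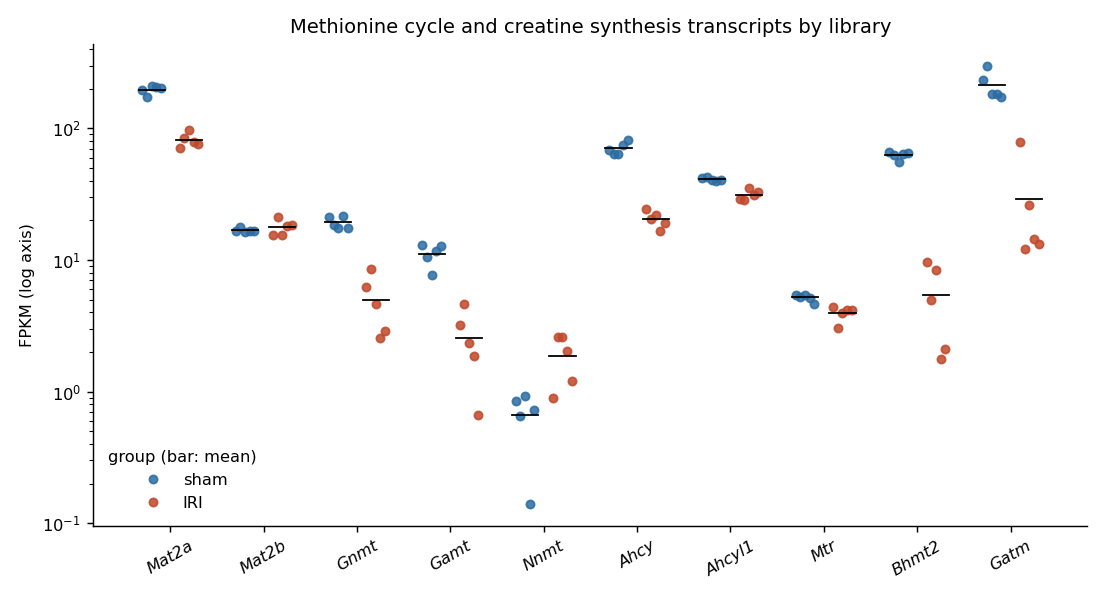
FPKM of each of the 10 genes on a log axis, with 1 point per library (5 sham, 5 IRI) and a bar at the group mean. The IRI points lie below all sham points for 8 genes, overlap them for Mat2b, and lie mostly above them for Nnmt, whose mean levels are the lowest of the set.

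The promoters of 4 genes are shown because they pair genes of 1 process that differed in response or in level: Mat2a and Mat2b, the catalytic and regulatory subunits of the same enzyme, and Gatm and Gamt, the first and second steps of creatine synthesis. Each is the 200 bases before the RefSeq transcript start, on build GRCm38.p6 (the deposited table uses GRCm39), read 5′ to 3′ on the minus strand. Capitals mark CCAAT and TATAAA on either strand.
Mat2a, chr6:72439557-72439756: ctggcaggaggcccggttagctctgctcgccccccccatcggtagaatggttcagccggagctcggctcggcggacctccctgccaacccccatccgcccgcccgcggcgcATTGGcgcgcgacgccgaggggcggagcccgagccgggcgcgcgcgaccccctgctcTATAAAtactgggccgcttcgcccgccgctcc
Mat2b, chr11:40692683-40692882: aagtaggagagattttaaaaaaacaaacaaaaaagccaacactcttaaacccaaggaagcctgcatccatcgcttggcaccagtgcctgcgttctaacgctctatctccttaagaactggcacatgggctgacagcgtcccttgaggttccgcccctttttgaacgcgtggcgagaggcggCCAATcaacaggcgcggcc
Gatm, chr2:122611278-122611477: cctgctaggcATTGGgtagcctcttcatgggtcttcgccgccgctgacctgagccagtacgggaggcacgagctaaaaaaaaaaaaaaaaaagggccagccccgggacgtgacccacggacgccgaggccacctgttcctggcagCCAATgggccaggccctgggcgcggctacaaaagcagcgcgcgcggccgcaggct
Gamt, chr10:80261013-80261212: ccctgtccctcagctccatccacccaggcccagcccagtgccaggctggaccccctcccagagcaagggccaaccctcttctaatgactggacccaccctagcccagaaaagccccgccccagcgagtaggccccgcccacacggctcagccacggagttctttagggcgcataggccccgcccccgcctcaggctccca
The Mat2a window held 1 CCAAT, 1 TATAAA and 3 copies of CCGCCC, whereas that of Mat2b held 1 CCAAT, no TATAAA and 1 CCGCCC. The Gatm window held 2 copies of CCAAT and no CCGCCC, and the Gamt window held no CCAAT and 3 copies of CCGCCC. A RefSeq promoter was found for 9 of the 10 genes, and CCAAT was present in 5 of them (Gatm, Mat2a, Mat2b, Mtr and Gnmt), against 29.3% of all 32851 promoter windows of that length. TATAAA was present in 1 of the 9 (9.96% of all windows) and CCGCCC in 7 (31.0% of all windows), each counted on both strands. A gene of the set was counted if any of its windows held the motif, and Ahcyl1 had more than 1 window. The shares, in contrast, are over single windows, 32851 from 27025 genes, so the units differ. The GC content of the windows was 74.5% for Mat2a, 52.0% for Mat2b, 64.0% for Gatm and 68.5% for Gamt, with a median of 53.0% over all windows. A CCAAT thus stood in front of genes that fell (Mat2a, Gatm, Gnmt and Mtr) and of Mat2b, which was not called, and these matches describe letters, not binding.

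SAM synthesis is described first. Mat2a encodes the catalytic subunit of the methionine adenosyltransferase of tissues other than the adult liver, and lies on chromosome 6 from 72409782 to 72416541 (GRCm39, minus strand). Its FPKM was 196, 174, 208, 207 and 202 in sham, and 71.1, 84.2, 97.0, 78.2 and 75.5 in IRI. The highest IRI library thus stood well below the lowest sham library, and both groups were tight. Mat2a fell by 1.53 ± 0.11 on the log2 scale (± SE, edgeR adjusted p = 3.58e-07). It remained among the more abundant transcripts, at rank 198 of the table by mean FPKM in sham and rank 520 in IRI. The antisense gene Particl overlaps it but held at most 82 counts in any library, against at least 4963 for Mat2a.

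Mat2b encodes the regulatory subunit, which binds the catalytic one and is not itself a synthetase (chromosome 11, 40570141 to 40586030). FPKM values of Mat2b were 16.7, 17.9, 16.3, 16.7 and 16.7 in sham and 15.5, 21.4, 15.5, 18.0 and 18.4 in IRI. The groups overlapped, and the IRI libraries lay on both sides of the sham range. Its log2 fold change was -0.18 ± 0.09 with TMM factors (edgeR adjusted p = 0.0936) and 0.08 with library totals, so no direction can be given. Without IRI replicate 2 it was called lower (-0.22, edgeR adjusted p = 0.0265).

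The ratio of Mat2a to Mat2b, which does not depend on how libraries are scaled, put the subunits side by side. In FPKM the ratio was 11.7, 9.70, 12.8, 12.4 and 12.1 in sham and 4.59, 3.94, 6.25, 4.34 and 4.11 in IRI. Every IRI ratio lay below every sham ratio. On the log2 scale the difference was -1.35 (exact two-sided permutation p = 0.00794, the smallest that regroupings of 5 against 5 libraries allow; adjusted p = 0.0132 over 5 ratios). The 5 ratios were chosen with earlier results of these data known.

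The other genes of SAM supply stood low. Mat1a, the synthetase subunit of the adult liver, was listed at 0 FPKM in every sham library and at a mean of 0.006 FPKM in IRI. Slc25a26, which carries SAM into mitochondria, fell by 0.80 ± 0.11 on the log2 scale (edgeR adjusted p = 5.31e-05), from 3.19 ± 0.229 to 2.18 ± 0.194 FPKM. Mettl16, an RNA methyltransferase known to control the splicing of Mat2a transcripts in response to SAM, fell by 0.59 ± 0.11 (edgeR adjusted p = 4.57e-04), from 2.23 ± 0.177 to 1.75 ± 0.182 FPKM, with overlapping groups.

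Of the SAM-using enzymes in the set, Gnmt and Gamt fell and Nnmt rose. Gnmt, glycine N-methyltransferase, methylates glycine to sarcosine and is known as a buffer of SAM levels (chromosome 17, 47036590 to 47040094). Its FPKM was 21.4, 18.4, 17.5, 21.6 and 17.5 in sham and 6.22, 8.58, 4.65, 2.53 and 2.86 in IRI. All 5 IRI libraries lay below the sham range, and they differed among themselves by up to 3.39-fold, against 1.24-fold in sham. The fall was 2.21 ± 0.30 on the log2 scale (edgeR adjusted p = 4.07e-05).

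Gamt, guanidinoacetate N-methyltransferase, makes creatine (chromosome 10, 80093985 to 80096846). The sham libraries held 13.1, 10.5, 7.68, 11.7 and 12.9 FPKM of Gamt, and the IRI libraries held 3.19, 4.64, 2.32, 1.87 and 0.66. The values did not overlap, although the lowest sham library, replicate 3, came within a factor of 1.70 of the highest sham library, replicate 1, and the IRI libraries spread 7.03-fold. Gamt fell by 2.39 ± 0.38 on the log2 scale (edgeR adjusted p = 1.43e-04).

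Nnmt methylates nicotinamide with SAM (chromosome 9, 48503177 to 48516453). Its FPKM was 0.85, 0.65, 0.93, 0.14 and 0.73 in sham and 0.90, 2.61, 2.60, 2.05 and 1.21 in IRI, from 3 to 24 counts per sham library and 23 to 71 counts per IRI library. IRI replicate 1 lay within the sham range and the other 4 IRI libraries above it. With no filter on low values Nnmt rose by 1.25 ± 0.39 on the log2 scale (edgeR adjusted p = 0.0155), and the adjusted p ranged from 0.0045 to 0.0476 over 15 other fits with no filter, chosen after the data were seen. Its log2 fold change was 0.77 to 1.48 in those fits. Nnmt is also known from fibroblasts: the summed FPKM of 7 fibroblast and pericyte markers was 30.0 to 41.9 in sham and 18.9, 64.4, 97.1, 89.4 and 62.4 in IRI, with 1 marker higher (Pdgfrb), 1 lower (Dcn), 4 not called and Lum below the filter. IRI replicate 1 was thus the lowest IRI library both for that sum and for Nnmt, and the part of these cells in the Nnmt values was not tested.

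Set against Gnmt, Nnmt moved the other way. The Nnmt to Gnmt ratio of FPKM was 0.0398, 0.0353, 0.0531, 0.00648 and 0.0417 in sham and 0.145, 0.304, 0.559, 0.81 and 0.423 in IRI. The groups did not overlap, and the difference was 3.73 on the log2 scale (exact two-sided permutation p = 0.00794; adjusted p = 0.0132 over 5 ratios). In sham replicate 4 the ratio rests on 3 Nnmt counts, and without that library the difference was 3.20. Of the FPKM of Gnmt, Gamt and Nnmt together, Nnmt made up 0.419% to 3.56% in sham and 8.73% to 31.8% in IRI. That sum itself was 26.1 to 35.3 FPKM in sham and 4.73 to 15.8 in IRI.

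The ratio of Mat2a to Gamt set a transcript of SAM synthesis beside one of SAM use for creatine, and measures neither process. It was 15.0, 16.5, 27.1, 17.7 and 15.7 in sham and 22.3, 18.1, 41.8, 41.8 and 114 in IRI. Although the IRI mean was higher by 1.09 on the log2 scale, the groups overlapped and the test did not pass (exact two-sided permutation p = 0.0556; adjusted p = 0.0694 over 5 ratios). It passed without sham replicate 3 (1.24, adjusted p = 0.0198 by the exact permutation test), without IRI replicate 1 (1.28, adjusted p = 0.0397 by the exact permutation test) and without IRI replicate 2 (1.36, adjusted p = 0.0397 by the exact permutation test). Without IRI replicate 5 the difference was 0.69.

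**Figure D2:**
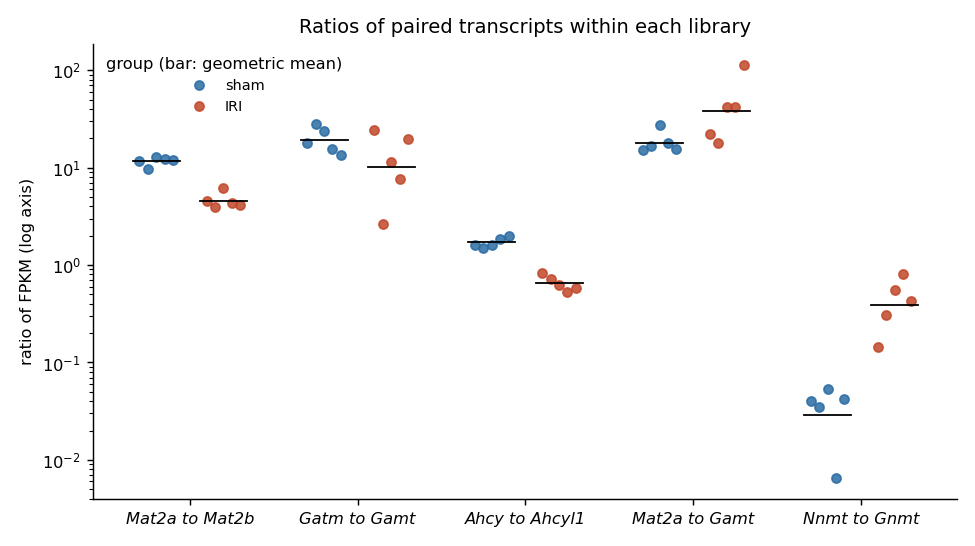
Ratios of FPKM within each library on a log axis for 5 pairs of transcripts, with 1 point per library and a bar at the geometric mean of each group. Sham and IRI do not overlap for Mat2a to Mat2b, Ahcy to Ahcyl1 and Nnmt to Gnmt, and overlap for Gatm to Gamt and Mat2a to Gamt.

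S-adenosylhomocysteine inhibits most methyltransferases and is removed by Ahcy, the hydrolase that splits it (chromosome 2, 154901230 to 154916417). Ahcy stood at 68.0, 63.6, 64.3, 74.6 and 81.9 FPKM in sham and at 24.4, 20.6, 21.9, 16.5 and 19.2 in IRI. The highest IRI value was 24.4 and the lowest sham value 63.6, far apart. Its log2 fold change was -2.02 ± 0.14 (edgeR adjusted p = 2.79e-07), with the smallest adjusted p of the set. Ahcy has processed copies elsewhere in the genome, and the sources used here do not say how reads shared between copies were counted.

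Ahcyl1 encodes a relative of the hydrolase that is known as a binding partner of the inositol trisphosphate receptor and has no hydrolase activity. It fell less, from 39.9 to 43.0 FPKM over the sham libraries to 28.3 to 34.9 over the IRI libraries (log2 fold change -0.65 ± 0.09, edgeR adjusted p = 3.33e-05). The Ahcy to Ahcyl1 ratio was 1.62, 1.48, 1.60, 1.87 and 2.01 in sham and 0.837, 0.725, 0.628, 0.526 and 0.584 in IRI. Ahcy was thus the more abundant of the pair per length in every sham library and the less abundant in every IRI library. The difference was -1.39 on the log2 scale (exact two-sided permutation p = 0.00794; adjusted p = 0.0132 over 5 ratios).

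Both genes outside the set that were listed with Ahcy fell, where 32.4% of all tested genes were called lower. Adk, adenosine kinase, which takes away the adenosine that the hydrolase releases, went from 14.5 ± 0.913 to 6.12 ± 1.19 FPKM (log2 fold change -1.50 ± 0.12, edgeR adjusted p = 9.78e-07). Ahcyl2, a further relative of Ahcy, went from 16.5 ± 3.09 to 5.18 ± 1.23 FPKM (-1.91 ± 0.20, edgeR adjusted p = 5.87e-06). Its place in this list does not imply hydrolase activity.

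Homocysteine is methylated to methionine along separate routes, and the members of these routes differed in size of change. Bhmt2, a relative of betaine-homocysteine methyltransferase that is known to use S-methylmethionine as methyl donor, had the largest fold change of the 9 tested genes (chromosome 13, 93792228 to 93810810). Its FPKM was 65.6, 62.9, 55.5, 63.4 and 65.2 in sham and 9.72, 4.99, 8.43, 1.76 and 2.12 in IRI. The sham libraries were close together, whereas the IRI libraries spread 5.52-fold, with replicates 4 and 5 lowest. Bhmt2 fell by 3.75 ± 0.44 on the log2 scale (edgeR adjusted p = 1.36e-05), or 13.5-fold, and by 4.1 without IRI replicate 1 (edgeR adjusted p = 4.17e-06). Its neighbour Bhmt, the betaine-dependent enzyme of the liver, was near the bottom of the range, at 0.398 ± 0.172 FPKM in sham and 0.050 ± 0.0292 in IRI, and missed the filter. With no filter on low values it fell by 3.20 ± 0.44 on the log2 scale (edgeR adjusted p = 7.75e-06). That fit rests on 21 to 65 counts per sham library and 3 to 9 per IRI library.

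Mtr, the cobalamin-dependent methionine synthase that uses methylfolate, fell by 0.65 ± 0.11 (edgeR adjusted p = 2.65e-04). Its FPKM ranged from 4.64 to 5.46 in sham and from 3.05 to 4.38 in IRI, so the groups stood apart by a narrow margin, IRI replicate 1 being the highest of the IRI libraries. Mtrr, the reductase that keeps methionine synthase active, was not called (0.05 ± 0.12, edgeR adjusted p = 0.721) but was higher with library totals (0.31, edgeR adjusted p = 0.0482), at 2.68 ± 0.244 FPKM in sham and 3.31 ± 0.546 in IRI.

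The transcripts of enzymes that oxidise choline to betaine and break down what betaine and Gnmt leave behind were lower. All 4 of the 4 genes listed for this route were called lower, where 32.4% of all tested genes were. Their median log2 fold change was -2.01, or -2.415 without IRI replicate 1. Like the members, the lists were chosen with earlier results of these data known. Chdh, choline dehydrogenase, fell from 51.5 ± 8.75 to 18.3 ± 5.71 FPKM (-1.74 ± 0.20, edgeR adjusted p = 1.15e-05). Aldh7a1, which among other aldehydes oxidises betaine aldehyde, fell from 67.5 ± 6.38 to 24.4 ± 10.2 FPKM (-1.70 ± 0.26, edgeR adjusted p = 1.17e-04). Dmgdh, which demethylates the dimethylglycine left by betaine, fell from 42.0 ± 3.98 to 6.66 ± 3.35 FPKM (-2.89 ± 0.33, edgeR adjusted p = 1.18e-05). Sardh, which demethylates the sarcosine made by Gnmt, fell from 74.4 ± 6.67 to 17.7 ± 12.3 FPKM (-2.28 ± 0.38, edgeR adjusted p = 2.06e-04).

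Gatm, glycine amidinotransferase, makes guanidinoacetate in mitochondria of the proximal tubule and stood beside Mat2a at the top of the set in sham (chromosome 2, 122424948 to 122441784). Its FPKM was 232, 298, 182, 181 and 173 in sham and 78.2, 12.2, 26.2, 14.4 and 13.1 in IRI. The groups did not overlap, and IRI replicate 1 held 6.42 times the FPKM of IRI replicate 2. Gatm fell by 3.08 ± 0.54 on the log2 scale (edgeR adjusted p = 3.11e-04), or by 3.95 without IRI replicate 1 (edgeR adjusted p = 4.18e-07). From rank 180 of the table by mean FPKM in sham it came to rank 1742 in IRI, or to rank 3229 without IRI replicate 1. Of the summed FPKM of the 10 genes it made up 33.2% ± 6.12 in sham and 13.4% ± 10.8 in IRI (8.64% ± 2.42 without IRI replicate 1, n = 4), whereas Mat2a made up 31.1% ± 3.90 and 41.6% ± 6.93.

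The Gatm to Gamt ratio asked whether the transcripts for the steps of creatine synthesis changed alike. It was 17.8, 28.3, 23.7, 15.5 and 13.4 in sham and 24.5, 2.63, 11.3, 7.68 and 19.9 in IRI. IRI replicates 1 and 5 lay within the sham range, and replicates 2, 3 and 4 below it. The difference of -0.90 on the log2 scale did not pass the test (exact two-sided permutation p = 0.183), which does not show that both genes changed equally. With 1 library left out at a time, the difference ran from -1.21 without IRI replicate 1 (adjusted p = 0.0794 by the exact permutation test) to -0.41 without IRI replicate 2.

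Genes of creatine uptake and use did not move as a block. Of 5 genes, 3 passed the filter, with 1 lower, 1 higher and 1 not called. Ckb, the cytosolic creatine kinase of brain and kidney, fell from 47.7 ± 16.2 to 25.8 ± 7.26 FPKM (-1.14 ± 0.25, edgeR adjusted p = 0.0014), with overlapping groups. Ckmt1, the mitochondrial creatine kinase of non-muscle tissue, rose from 21.3 ± 1.24 to 42.3 ± 13.5 FPKM (0.72 ± 0.18, edgeR adjusted p = 0.00387), also with overlapping groups. Slc6a8, the creatine transporter, stood at 37.1 ± 4.79 FPKM in sham and 52.3 ± 3.81 in IRI. It was not called with TMM factors (0.24 ± 0.11, edgeR adjusted p = 0.0724) but was higher with library totals (0.50, edgeR adjusted p = 0.00106), and also without sham replicate 2 (0.30, edgeR adjusted p = 0.0404) or IRI replicate 4 (0.30, edgeR adjusted p = 0.0455).

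Small-molecule methyltransferases outside the set were mostly lower. Of 9 fixed genes, 6 fell, 1 rose and 2 were not called (median log2 fold change -1.06). With library totals 5 fell, Coq5 no longer being called (-0.16). Over all tested genes, 32.4% were called lower and 34.5% higher, or 23.6% and 47.4% with library totals. Inmt, which methylates indoleamines and thioethers, was the most abundant at 576 ± 43.2 FPKM in sham and 75.9 ± 79.1 in IRI (-3.12 ± 0.65, edgeR adjusted p = 0.0011, or -3.91 without IRI replicate 1). Tpmt, thiopurine methyltransferase, fell from 28.8 ± 0.783 to 6.47 ± 1.60 FPKM (-2.40 ± 0.16, edgeR adjusted p = 2.79e-07), and Hnmt, histamine methyltransferase, from 11.2 ± 1.42 to 3.76 ± 1.04 FPKM (-1.83 ± 0.18, edgeR adjusted p = 3.19e-06). As3mt, the arsenite methyltransferase, fell by 1.20 ± 0.14, and Coq3 and Coq5, methyltransferases of coenzyme Q synthesis, fell by 1.06 ± 0.17 and 0.41 ± 0.10. Pemt, which makes phosphatidylcholine by methylation, was the gene of this list that rose (1.61 ± 0.24, edgeR adjusted p = 1.04e-04), from 0.666 ± 0.223 to 2.41 ± 0.532 FPKM. Of the sham libraries only replicate 4 reached 1 FPKM of Pemt, so it passed the filter through its IRI values. With no filter it was also called higher (1.63 ± 0.27, edgeR adjusted p = 6.73e-05).

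Methionine salvage, which rebuilds methionine from the methylthioadenosine left by polyamine synthesis, was mixed: of 5 genes, 2 fell (Adi1, -0.70 ± 0.11, and Apip, -0.60 ± 0.13), 2 rose (Enoph1, 0.42 ± 0.12, and Mri1, 0.30 ± 0.12) and Mtap was not called (0.13 ± 0.11, and higher at 0.39 with library totals). The edgeR adjusted p of Mri1 was 0.046, and it was not called with RLE size factors (edgeR adjusted p = 0.0615), with no filter on low values (edgeR adjusted p = 0.0579), by DESeq2 (adjusted p = 0.0643), or without any of sham replicates 1, 3, 4 and 5 or without IRI replicate 3 (edgeR adjusted p = 0.0544 to 0.104).

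**Figure D3:**
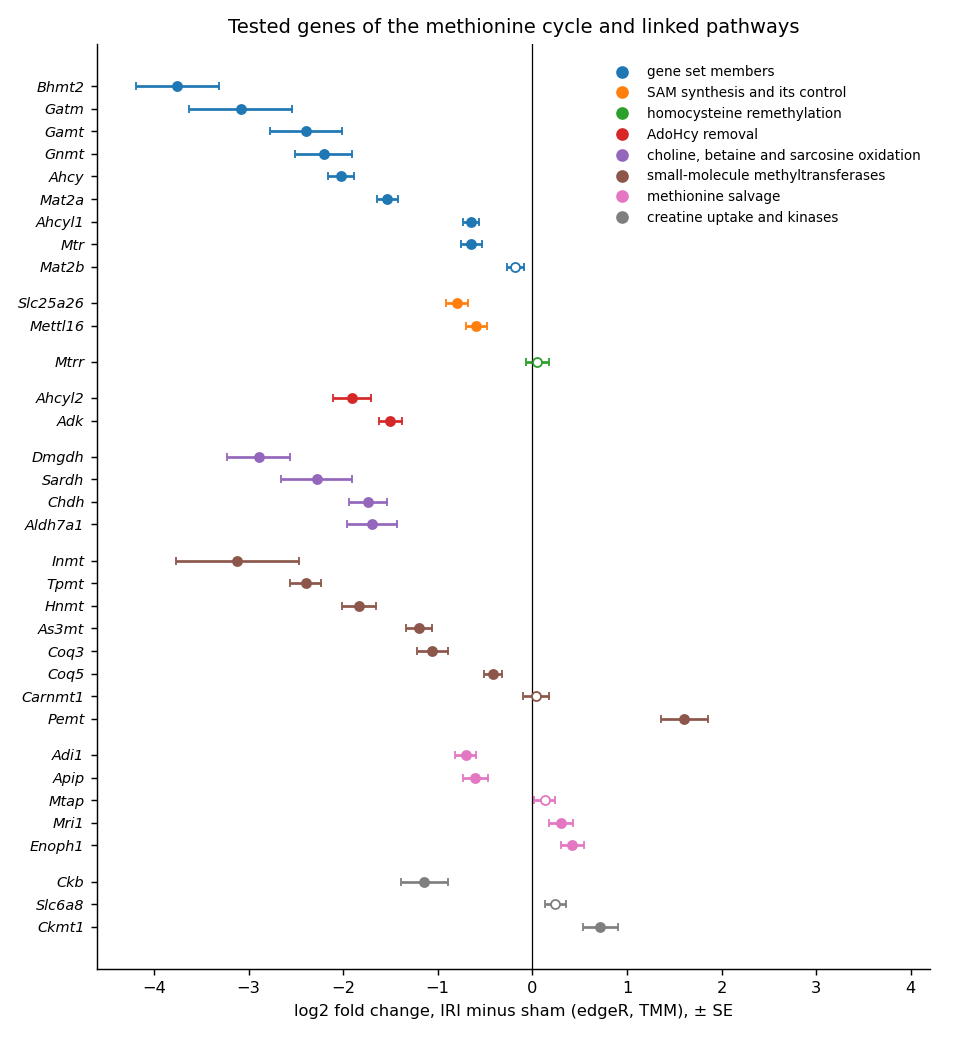
Log2 fold change of IRI against sham with its standard error (edgeR, TMM factors) for tested genes of the set and of linked pathways, coloured by the list they belong to; filled points were called at an adjusted p under 0.05 and open points were not. The 4 genes of choline, betaine and sarcosine oxidation lie between -2.89 and -1.70, while the salvage and creatine uptake genes lie on both sides of 0.

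The proximal tubule markers were lower after IRI as well. Of 12 markers, 12 were called lower (median log2 fold change -2.75), where 32.4% of all tested genes were. Their FPKM summed to 4000, 3970, 3420, 3850 and 3630 in sham and to 1290, 583, 680, 257 and 281 in IRI. IRI replicate 1 was the highest IRI library for the marker sum, for Gatm and for Bhmt2, and IRI replicates 4 and 5 were the lowest for the sum, Bhmt2 and Gnmt. Gnmt and Gamt, however, were highest in IRI replicate 2, where Gatm was lowest. Relative to the marker sum, Gatm FPKM was 4.71% to 7.51% in sham and 2.09% to 6.05% in IRI, with overlap. Bhmt2 was lower on that scale as well, at 1.58% to 1.80% in sham and 0.686% to 1.24% in IRI, without overlap. Mat2a was at 4.37% to 6.08% in sham, at 5.50% in IRI replicate 1 and at 14.3% to 30.5% in the other 4 IRI libraries. Ahcy was at 1.60% to 2.26% in sham and 1.88% to 6.84% in IRI. Gnmt was at 0.464% to 0.562% and 0.481% to 1.47%, and Gamt at 0.224% to 0.355% and 0.235% to 0.796%. Those ranges overlapped, with most IRI libraries above the sham range for Ahcy and Gnmt. Ahcyl1, Mat2b, Mtr and Nnmt were higher on that scale in every IRI library than in every sham library. These ratios are given without a test, and the part of cell composition in the changes was not tested.

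Markers of a further part of the tubule stood lower beside the set: of 4 markers of the distal convoluted and connecting tubule, 3 fell and 0 rose, Trpm6 not being called (0.64), and their FPKM summed to 177 to 281 in sham and 95.4 to 158 in IRI, without overlap. The summed FPKM of 6 neutrophil markers was 0.94 to 3.32 in sham and 20.0 to 104 in IRI, and all 4 that passed the filter were called higher. These 4 passed it only through their IRI values, S100a8, Retnlg and Csf3r being under 1 FPKM in every sham library. With no filter on low values, all 6 were called higher. Among 6 endothelial markers, 4 rose and 1 fell. Among 5 podocyte markers 4 rose and 0 fell, and of 5 thick ascending limb markers 2 rose and 3 fell. Of 5 intercalated cell markers 3 rose and 1 fell. Of the 4 principal cell markers that passed the filter 1 fell and 0 rose, and of 4 such monocyte and macrophage markers 2 rose and 1 fell. Itgam, which rose, was under 1 FPKM in every sham library and likewise passed the filter only through IRI. The part of these cells in the members' values was not tested. Beside these marker counts, 32.4% of all tested genes were called lower and 34.5% higher.

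**Figure D4:**
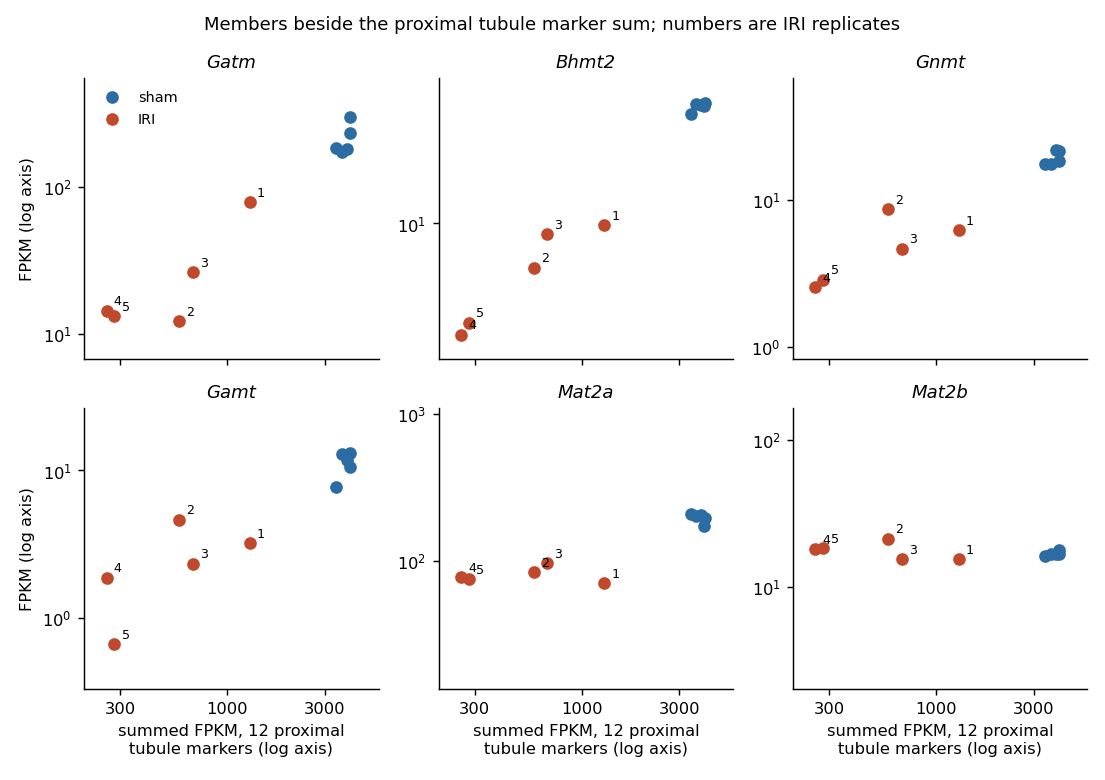
FPKM of 6 members against the summed FPKM of 12 proximal tubule markers in each library, both on log axes that span the same ratio in every panel; IRI points carry their replicate number. Gatm, Bhmt2, Gnmt and Gamt are lower in every IRI library than in every sham library, as is the sum. Among the IRI libraries they do not all follow the sum: Gnmt and Gamt are highest in replicate 2, where Gatm is lowest. Mat2a is at 71.1 to 97.0 FPKM in all 5 IRI libraries although the sum runs from 257 to 1290, and Mat2b is at 15.5 to 21.4 FPKM.

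Levels were also ordered per length. By mean FPKM in sham the order was Gatm (213 ± 53.1), Mat2a (197 ± 14.1), Ahcy (70.4 ± 7.74), Bhmt2 (62.5 ± 4.09), Ahcyl1 (41.2 ± 1.28), Gnmt (19.3 ± 2.05), Mat2b (16.9 ± 0.613), Gamt (11.2 ± 2.19), Mtr (5.19 ± 0.335) and Nnmt (0.660 ± 0.310). Of the neighbours in that order, the ranges over libraries overlapped for Gatm and Mat2a, for Ahcy and Bhmt2, and for Gnmt and Mat2b. Mat2a was above Gatm in sham replicates 3, 4 and 5, and without sham replicate 2 its mean was the higher one (203 against 192). In IRI the order was Mat2a (81.2 ± 10.0), Ahcyl1 (31.3 ± 2.71), Gatm (28.8 ± 28.2), Ahcy (20.5 ± 2.94), Mat2b (17.8 ± 2.43), Bhmt2 (5.40 ± 3.61), Gnmt (4.97 ± 2.51), Mtr (3.94 ± 0.517), Gamt (2.54 ± 1.49) and Nnmt (1.87 ± 0.789). There the neighbours Mat2a and Ahcyl1, and Mat2b and Bhmt2, stood apart, and the ranges of each other pair of neighbours overlapped. Without IRI replicate 1 the Gatm mean was 16.5 ± 6.55 (n = 4), below Ahcy (19.6) and Mat2b (18.3), and that of Bhmt2 (4.32) was below Gnmt (4.66). Gatm came before Ahcyl1 without any of IRI replicates 2, 4 and 5 (32.4 to 33.0 against 30.9 to 32.1). The places of Gnmt, Bhmt2 and Mtr among themselves also changed without IRI replicate 2 or 3.

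The tested genes whose profiles lay closest to 3 of the members were found by the root mean square difference over the 10 libraries of log2(FPKM + 1) less its sham mean. That measure mostly follows the size of the change on that scale, where adding 1 shrinks the changes of genes of low FPKM. For Gatm these were Pbld1 (0.26), the endocytic receptor gene Lrp2 (0.30) and the cytochrome P450 gene Cyp4a12a (0.33), with log2 fold changes of -3.44, -3.16 and -3.61. For Mat2a they were Itih5 (0.12), Chid1 (0.12) and Mkks (0.12), which fell by 2.11, 2.23 and 1.66 on the log2 scale. Their sham means were low, at 4.15, 3.32 and 6.59 FPKM, against 197 for Mat2a, which fell by 1.53. For Nnmt they were Paqr4 (0.18), Dynlt1b (0.19) and Kank2 (0.21), with log2 fold changes of 1.03, 0.47 and 0.68. Here the low gene was Nnmt itself, at 0.660 FPKM in sham, against 1.34, 16.6 and 4.17 for these genes.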

How the data were processed

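For each of 10 libraries the authors deposited raw counts and FPKM per gene in 1 table. Per the submitters' processing notes, the tools were cutadapt 1.9.1, HISAT2 2.0.1 and HTSeq 0.6.1 on GRCm39, with no roles stated. Poly(A) RNA was sequenced, per the labels' protocols. The deposited FPKM equalled count over exonic length and library total (100.0% of values, within 0.005 units or rounding). The sources used here do not state if counting used strand. Symbols were found by identifier for 52083 genes.

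The 13324 genes that reached 1 FPKM in 5 libraries or more were tested with edgeR 4.0.16 in R 4.3.3 (quasi-likelihood, TMM, Benjamini-Hochberg over those genes, calls under 0.05). The standard error is the log2 fold change over the square root of F. FPKM is scaled by library totals and fold changes by TMM factors (0.916 on average in sham, 1.09 in IRI), so FPKM ratios differ from them. Ratios between genes were tested by exact permutation (SciPy 1.17.1). No 2 libraries of a group agreed within counting error (a chi-square over genes was 7.40 to 80.7 times its degrees of freedom). On counts simulated for these 13324 genes, edgeR found 52% of the 50 genes altered 1.5-fold and 72% of the 50 altered 2-fold, with 6.9% false calls. The simulation took its spread from the sham libraries and altered few genes. In the data, that chi-square ran to 30.5 for pairs of sham libraries and 80.7 for IRI pairs, and most tested genes were called. The simulated rates are thus not those of the IRI comparison.

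The members, lists and ratios were chosen with earlier results of these data known. Named genes are the 10 members, called genes of the fixed pathway lists, at most 2 uncalled genes per list, and the 3 closest profiles of Gatm, Mat2a and Nnmt, passing over predicted genes. The results of 2 genes of the fixed lists are not reported here. Alternatives were other scalings, filters and pseudocounts, DESeq2 1.42.0, limma 3.58.1, a block for the replicate number, and each library left out. Mean levels, ranks and shares with a library left out were added after the data were seen.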

Additional observations from a re-analysis of the deposited data

Results flagged for a closer look

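In each group of 5 libraries, the gap between the highest or lowest library and its nearest neighbour was compared with the whole range of the group, and 3 values of the 20 groups examined (10 genes in sham and in IRI) had a gap above 0.71 of it. Chance flags about 1 in 20 groups. Gatm stood at 78.24 FPKM in IRI replicate 1, with a gap of 0.788 of the range to the next IRI library. That library also held the highest proximal tubule marker sum of the IRI group (1290). Mat2b stood at 17.91 FPKM in sham replicate 2, a gap of 0.735 of a narrow sham range that began at 16.29. Bhmt2 stood at 55.47 FPKM in sham replicate 3, a gap of 0.733 of the range below the other sham libraries, and far above every IRI value.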

How the results depend on the processing

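Gatm, Bhmt2, Gamt, Gnmt, Ahcy, Mat2a and Ahcyl1 were called lower in all 18 alternatives, and Mtr in all 17 in which it was tested. A filter at 5 FPKM, under which Mtr was not tested, gave 3044 genes higher and 2842 lower over fewer genes, against 4599 and 4320, and 7 members lower. Library totals gave 6322 higher and 3139 lower. With no filter, 1 member (Nnmt) was called higher. Adding 1 to each FPKM put the Gatm to Gamt difference at -1.33 (adjusted p = 0.0397, exact permutation). Adding 1 shrinks the changes of genes of low FPKM, and Gamt stood at 0.66 to 4.64 FPKM in IRI. In the limma fits Gamt changed by -1.87 with 1 added and by -2.305 with 0.1 added, and Gatm by -3.20 and -3.26. Leaving out 1 library at a time gave differences of 0.69 to 1.36 for Mat2a to Gamt. Mri1 lost its call under the replicate block (edgeR adjusted p = 0.0921).

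Samples shared only a replicate number: deviations of same-numbered libraries correlated at -0.282 to 0.091, and no sham library correlated best with its own number. A block for that number in edgeR gave 4221 genes higher and 4097 lower, and 8 members lower. Sign flips over the 5 same-numbered pairs cannot give a p below 0.0625, so the differences of Mat2a to Mat2b (-1.35), Ahcy to Ahcyl1 (-1.39) and Nnmt to Gnmt (3.73) had adjusted p = 0.0781 there (exact test). Depth limits Nnmt, which had 3 to 71 counts per library.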

Other observations

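Enzymes that use SAM to methylate DNA, RNA and protein moved in both directions. Of 10 genes fixed for this list, 5 were higher, 1 was lower and 4 were not called by edgeR (median log2 fold change 0.27), where 34.5% of all tested genes were higher and 32.4% lower. With library totals 9 were higher and 0 lower, where 47.4% of all tested genes were higher and the median tested gene moved up by 0.25. Prmt1, the main arginine methyltransferase of proteins, rose from 11.3 ± 0.788 to 29.6 ± 3.09 FPKM (1.13 ± 0.08, edgeR adjusted p = 4.00e-07). Dnmt1, the maintenance DNA methyltransferase, rose from 3.18 ± 0.318 to 7.45 ± 0.736 FPKM (0.98 ± 0.10, edgeR adjusted p = 4.18e-06). Ezh2, a histone methyltransferase, rose by 0.73 ± 0.15, Carm1 by 0.71 ± 0.13 and Prmt5 by 0.29 ± 0.08. Mettl3, the catalytic subunit of the messenger RNA adenosine methyltransferase, was the lower one (-0.40 ± 0.14, edgeR adjusted p = 0.025), but was not called with library totals (-0.16) or without any of IRI replicates 2 to 5 (edgeR adjusted p = 0.0708 to 0.0782). Its partner Mettl14 was not called (0.26 ± 0.11, edgeR adjusted p = 0.0505), and was higher with library totals (0.51) and without any of IRI replicates 1, 4 and 5 (edgeR adjusted p = 0.0177 to 0.0392).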
